A study of Mus musculus with 2 samples.

Results

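The respiratory chain of the inner mitochondrial membrane moves electrons from NADH and succinate to oxygen through complexes I to IV, and complex V, the ATP synthase, uses the proton gradient that results to make ATP. Complex I oxidises NADH, complex II oxidises succinate, complex III passes electrons from ubiquinol to cytochrome c, and complex IV, cytochrome c oxidase, hands them to oxygen. Complex II does not pump protons and is also an enzyme of the citric acid cycle. Most subunits are encoded in the nucleus, and several complex IV subunits have isoforms restricted to certain tissues. The genes described here are the rows of the deposited count table whose symbols start with the prefixes of nuclear subunit genes, from Nduf (complex I) and Sdha to Sdhd (complex II) to Uqcr (III), Cox4 to Cox8 (IV) and Atp5 (V), with the Ndufaf assembly factors left out. This rule took 81 of 16040 genes: 37 of complex I, 4 of complex II, 8 of complex III, 16 of complex IV and 16 of complex V.

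The comparison is of lung fibroblasts from mice given bleomycin, a DNA-damaging drug that produces lung fibrosis, with those from mice given saline, each instilled into the trachea and taken at day 14. All mice carried Col1a2-EGFP, a green fluorescent reporter under a type 1 collagen promoter, and the cells sorted were those with the reporter and without lineage markers, so the cells studied are those in which that promoter was active. RNA was counted by serial analysis of gene expression (SAGE), in which each transcript gives a short tag near its 3′ end. There is 1 bleomycin library and 1 saline library, each labelled as fibroblasts from 3 mice, with 1099840 counts over 12918 genes in the bleomycin library and 1080798 counts over 12275 genes in the saline library. Age and sex are not given in the labels used here.

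Because each group is 1 library, the differences below have no replicate check. The test used, an exact binomial test on reads, compares these libraries and not the conditions, and the range after each ratio is its exact 95% interval, which covers counting error only. In bulk RNA, fewer cells of a type and less RNA per cell cannot be told apart. Genes that define fibroblasts were abundant in both libraries: Col1a1 had 7925 counts in the bleomycin and 2714 in the saline library, and Pdgfra had 323 and 509. Most marker lists of other cells had lower sums in the bleomycin library, and smooth muscle markers had a higher one. The 12 endothelial markers summed to 47 counts in the bleomycin and 558 in the saline library. Emcn was at 0 in both and Kdr at 0 in the bleomycin library. Of 10 tested, 10 were lower, against 14.1% of all genes tested. The 6 alveolar type 2 markers found summed to 10 and 164 counts, with Sftpd and Lamp3 at 0 in both. The 5 airway markers summed to 170 and 586, with Ccdc153 at 0 in both. The 12 leukocyte markers summed to 18 and 64, with Emr1, Marco and Cd3e at 0 in both. In each of these lists 1 gene gave most counts: Sftpc (7 and 154), Tppp3 (153 and 535) and Lyz1 (10 and 55). Apart from Scgb1a1 (12 and 46), the rest had at most 8 counts in either library. Some were higher in the bleomycin library, such as Foxj1 (3 and 0), and some lower, such as Cyp2f2 (2 and 5). The 9 smooth muscle markers summed to 2795 counts in the bleomycin and 2074 in the saline library, a ratio of 1.36 (1.29 to 1.44), with none at 0 in both. Of 8 tested, 3 were higher (Acta2, Tagln and Des) and 3 lower (Myh11, Cnn1 and Hhip), or 37.5% each. Over all genes tested 13.8% were higher and 14.1% lower. The median count of the 8 was 397 over both libraries, against 52 for all genes tested, and more counts make the test easier to pass. Acta2 and Tagln are also expressed by activated fibroblasts. The part of these cells in the results below was not tested.

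Each of the 81 genes was matched, by the transcript record named in the table, to a GENCODE M21 transcript (build GRCm38), and the last CATG before its 3′ end, the site at which the anchoring enzyme of SAGE cuts, was located. All 81 transcripts held such a site. A window of 25 bases from that CATG lay wholly in the 3′ untranslated region for 51 genes, in coding sequence for 27 and across both for 3. The windows of the genes whose counts differed most, and of the isoforms they are compared with, are shown because they are what the counts stand for. CATG is in capitals.
Ndufa11: CATGggcactgcggccgccctgttc
Ndufs1: CATGttaaaaaca
Ndufa4l2: CATGcagtgggcttcttccctgccc
Uqcrh: CATGcacgggaccactgtgtggccc
Uqcrq: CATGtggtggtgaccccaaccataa
Cox4i2: CATGaagagcaaccccatacagggc
Cox4i1: CATGctaataaaagaccagtttacg
Cox6b2: CATGaatcgccgcggaaagagcaca
Cox6b1: CATGatgcaactactaataaaaact
Atp5g1: CATGccagtcctggtgctggagtct
Atp5g3: CATGgaaatatatgttatttccaca

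On GRCm38 the Ndufa11 window is chr17:56722022-56722046 on the plus strand, in the coding part of the last exon, and the Uqcrq window is chr11:53427943-53427967 on the minus strand, in the 3′ untranslated region. The Cox4i2 window is chr2:152764812-152764836 on the plus strand, in coding sequence of exon 5 of 5, and the Cox6b2 window is chr7:4752115-4752139 on the minus strand, in coding sequence of exon 3 of 4. The Uqcrh window starts in exon 3 and runs across a splice junction, between 116067166 and 116069880 on chromosome 4, minus strand. Cox4i2 and Cox4i1, and likewise Cox6b2 and Cox6b1, have different windows, so tags from these sites would tell the isoforms apart.

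For 69 genes the window was in the transcripts of no other gene. For 7 it was also in another gene, so that their counts may hold tags of both: Uqcrh (shared with Gm11474), Atp5l (Gm9391), Atp5f1 (Gm12231), Cox5b (Gm11273), Cox7c (Gm10012), Ndufb8 (Gm20538) and Ndufs6 (Ndufs6b). For 5 genes fewer than 25 bases followed the site. Uqcr10, a small subunit of complex III, had its last CATG 7 bases from the annotated end and 0 counts in both libraries. A tag this short may not be assignable at any level, so the 0 sets no limit on its expression. The others were Uqcrb with 4 bases, Ndufs1 and Cox8b with 13 and Atp5e with 17. A tag count is not scaled by transcript length and depends on this site, so levels are compared between libraries and not between genes.

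Most subunits did not pass the test, and those that did were more often higher than lower after bleomycin. Of the 81 genes, 77 had at least 10 counts over both libraries and were tested. The bleomycin library was higher for 23 of them and lower for 5 at an adjusted p under 0.05 (exact binomial test, Benjamini-Hochberg over all 9369 genes tested). Over all genes tested the shares were 13.8% higher and 14.1% lower, against 29.9% and 6.49% of the subunits. Subunit genes have more counts than most, with a median of 288 over both libraries against 52 for all genes tested, and more counts make the test easier to pass. Among genes with at least 50 counts, 19.4% were higher and 20.8% lower, and 22 and 4 of 64 subunits were (34.4% and 6.25%). The median log2 ratio of bleomycin over saline was 0.17 over the 77 subunits and 0.02 over all genes tested, and 50 of 77 ratios (64.9%) lay above 1, against 50.4% of all genes. A ratio of at least 2 together with the same adjusted p was reached by 4 subunits upward and 3 downward, where 8.08% of all genes were 2-fold higher and 8.52% 2-fold lower. With Bonferroni adjustment 8 of the 77 subunits were higher and 2 lower, where 459 of all 9369 genes tested were higher and 491 lower.

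**Figure D1:**
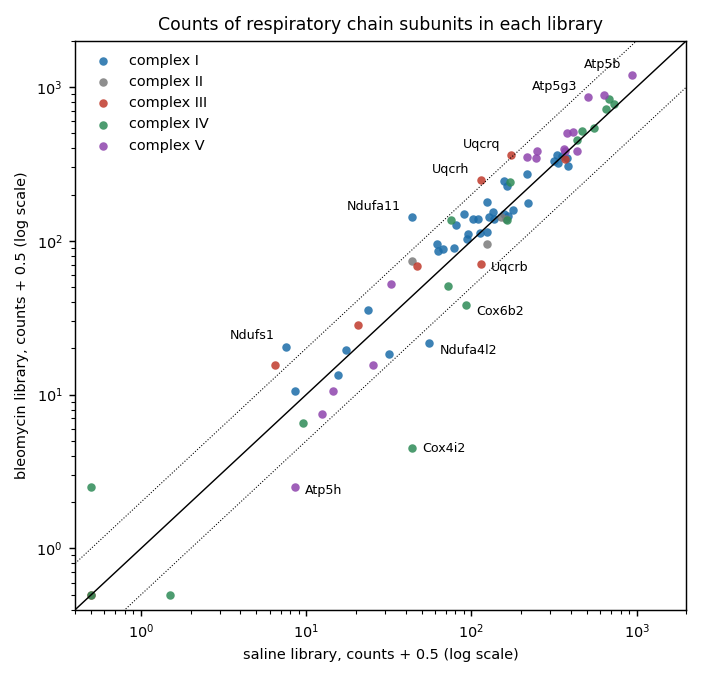
Counts of the 81 subunit genes in the bleomycin library (vertical axis) against the saline library (horizontal axis), each with 0.5 added, on log scales, coloured by complex. The solid line marks equal counts and the dotted lines 2-fold differences before scaling for library size; most genes lie between the dotted lines, and Cox4i2 lies farthest below them.

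Summed over their members, complexes III and V had the largest ratios, complexes I and IV smaller ones, and complex II a ratio whose interval holds 1. Complex V genes summed to 6278 counts in the bleomycin and 4828 in the saline library, a ratio of 1.32 (1.27 to 1.37). Complex III genes summed to 1131 and 838 counts, a ratio of 1.36 (1.25 to 1.49). Of the complex III counts, Uqcrh gave 248 and 113 and Uqcrq 360 and 173. No other tested complex III gene was higher by the test, and Uqcrb was lower. For complex I the sums were 5633 and 5139 counts, with a ratio of 1.11 (1.07 to 1.15). Complex IV had 4453 and 4145 counts, with a ratio of 1.09 (1.04 to 1.13). Complex II had 450 and 478 counts, with a ratio of 0.952 (0.835 to 1.08). Median log2 ratios over tested members followed the same order, with 0.58 for complex III (7 genes), 0.36 for V (16), 0.17 for I (37), 0.06 for IV (13) and −0.12 for II (4). Members are not replicates of a complex, so differences between complexes were not tested. All 81 genes together held 1.63% of the bleomycin and 1.43% of the saline counts.

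**Figure D2:**
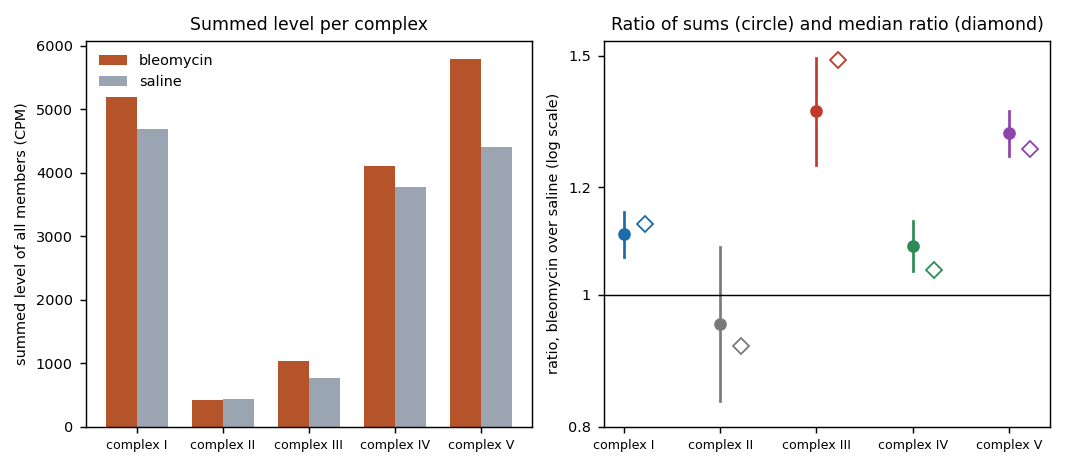
Left, summed level of all members in CPM (counts scaled to library size) of each complex, with bars for the bleomycin and saline libraries. Right, the ratio of the sums with its exact 95% interval (circles and lines) and the median ratio of tested members (diamonds) on a log scale; complexes III (1.36) and V (1.32) stand highest and the interval of complex II crosses 1.

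Complex V was the complex with the largest number of members past the test relative to its size. Of 16 tested genes, 8 were higher (50%, against 13.8% over all genes tested) and 0 lower (against 14.1%). Unadjusted p under 0.05 added Atp5f1 to the higher side, and the ratios of the 8 ran from 1.26 to 1.72. Complex V genes had the highest median count of the complexes, 695 over both libraries against 52 for all genes tested. More counts make the test easier to pass. No member reached 2-fold. Atp5g1 and Atp5g3 encode the c subunit, which forms the rotating membrane ring; both yield the same mature protein from different precursors. Atp5g3 had 859 counts in the bleomycin and 506 in the saline library, 1.72-fold higher (1.54 to 1.92), adjusted p = 4.08e-21 by the exact binomial test. Atp5g1 had 348 and 216 counts and was 1.63-fold higher (1.37 to 1.94). Both c subunit genes therefore stood higher by like amounts, and Atp5g1 held 28.8% (26.3 to 31.5) of their joint counts in the bleomycin and 29.9% (26.6 to 33.4) in the saline library. Atp5g2 was not analysed here. A predicted record that the table describes as a mitochondrial ATP synthase lipid-binding protein, LOC100504871, which was picked after its values were seen, had 460 and 244 counts, a ratio of 1.91 (1.63 to 2.24).

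Peripheral stalk genes, whose products hold the catalytic head still against the rotor, were also higher where counts were large. Atp5o, the stalk subunit that contacts the head, had 386 counts in the bleomycin and 250 in the saline library and was 1.56-fold higher (1.33 to 1.84), and Atp5j, coupling factor 6, had 501 and 376 counts and was 1.35-fold higher (1.18 to 1.54). Atp5f1, subunit b, had 52 and 32 counts, with a ratio of 1.64 (1.04 to 2.64) that did not pass after adjustment (p = 0.0894, exact binomial test). Atp5h, subunit d, had 2 and 8 counts, too few to place its ratio (0.0262 to 1.27).

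The small membrane subunits e and g, which take part in joining ATP synthases into dimers, were both higher. Atp5l, subunit g, had 884 counts in the bleomycin and 632 in the saline library and was 1.42-fold higher (1.28 to 1.57). Atp5k, subunit e, had 344 and 245 counts and was 1.42-fold higher (1.2 to 1.68). Atp5j2, subunit f, had 384 and 370 counts with a ratio of 1.05 (0.907 to 1.21).

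In the catalytic F1 head the alpha and beta subunits passed the test and the central stalk subunits did not. Atp5b, the catalytic beta subunit, had the highest count of all 81 genes in each library, 1199 in the bleomycin and 932 in the saline library, and was 1.3-fold higher (1.19 to 1.42). Atp5a1, the alpha subunit, had 510 and 409 counts and was 1.26-fold higher (1.1 to 1.44). Atp5c1, the gamma subunit that turns inside the head, had 385 and 437 counts, with a ratio of 0.891 (0.775 to 1.02), and Atp5d, the delta subunit, had 392 and 364 counts, with a ratio of 1.09 (0.942 to 1.26). The interval of Atp5c1 does not overlap those of Atp5a1 and Atp5b. Atp5e, the epsilon subunit, had 7 and 12 counts. Atp5s and Atp5sl, which the symbol rule also takes, are named Dmac2l and Dmac2 in RefSeq and are not constitutive subunits; they had 10 and 15 counts in the bleomycin library and 14 and 25 in the saline library, and neither passed.

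In complex III a pair of small subunits reached 2-fold and another small subunit was lower. Uqcrh, the acidic hinge protein that aids the docking of cytochrome c, had 248 counts in the bleomycin and 113 in the saline library and was 2.22-fold higher (1.77 to 2.8), adjusted p = 9.61e-12 by the exact binomial test. Uqcrq, subunit VII, had 360 and 173 counts and was 2.1-fold higher (1.75 to 2.54). Uqcrb, the ubiquinone-binding protein, went the other way, with 70 counts in the bleomycin and 113 in the saline library, 1.6-fold lower (1.17 to 2.18). Uqcr11 had 342 and 367 counts, with a ratio of 0.942 (0.811 to 1.09). The Uqcrh tag is shared with Gm11474 and the Uqcrb site lies 4 bases from the annotated transcript end, which limits how far both counts can be assigned.

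The larger complex III subunits that the symbol rule takes had fewer counts than Uqcrh, Uqcrq, Uqcrb and Uqcr11, and none passed. Uqcrfs1, the Rieske iron-sulphur protein, had 15 counts in the bleomycin and 6 in the saline library, a ratio of 2.53 (0.927 to 7.95). Uqcrc1 had 28 and 20 counts, with a ratio of 1.42 (0.77 to 2.65), and Uqcrc2 68 and 46 with a ratio of 1.5 (1.01 to 2.22). These core proteins form the matrix-facing part of the complex. Cyc1, cytochrome c1, is a catalytic subunit of complex III that the symbol rule does not take; it had 173 and 112 counts and was 1.56-fold higher (1.22 to 2).

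In complex IV, of 9 widely expressed subunits tested, 3 were higher (33.3%) and 0 lower, whereas the 2 tissue-restricted isoforms tested were both lower. Over all genes tested 13.8% were higher and 14.1% lower. The median count over both libraries was 986 for the widely expressed subunits and 88.5 for the restricted isoforms. Cox4i2, the isoform of subunit 4 that lung expresses and that low oxygen induces, had 4 counts in the bleomycin and 43 in the saline library and was 10.6-fold lower (3.86 to 40.8). It was the smallest ratio of the tested subunits. Its widely expressed counterpart Cox4i1 had 834 and 683 counts and was 1.24-fold higher (1.11 to 1.37). Cox4i2 thus made up 0.477% (0.13 to 1.22) of Cox4 counts in the bleomycin and 5.92% (4.32 to 7.9) in the saline library, and the intervals do not overlap.

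Cox6b2, an isoform best known from testis, had 38 counts in the bleomycin and 92 in the saline library and was 2.39-fold lower (1.62 to 3.59). Cox6b1, the common isoform, had 450 and 436 counts, with a ratio of 1.04 (0.913 to 1.19). The Cox6b2 share of the pair was 7.79% (5.57 to 10.5) in the bleomycin and 17.4% (14.3 to 20.9) in the saline library, again without overlap. The muscle isoforms were at or near the floor: Cox6a2 had 0 counts in both libraries, Cox7a1 had 0 and 1, and Cox8b had 2 and 0. Cox6a2 therefore made up at most 0.683% of Cox6a counts in the bleomycin and 0.665% in the saline library (upper exact 95% limits). The last Cox8b site lies 13 bases from the annotated end, which limits how far its counts can be assigned.

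**Figure D3:**
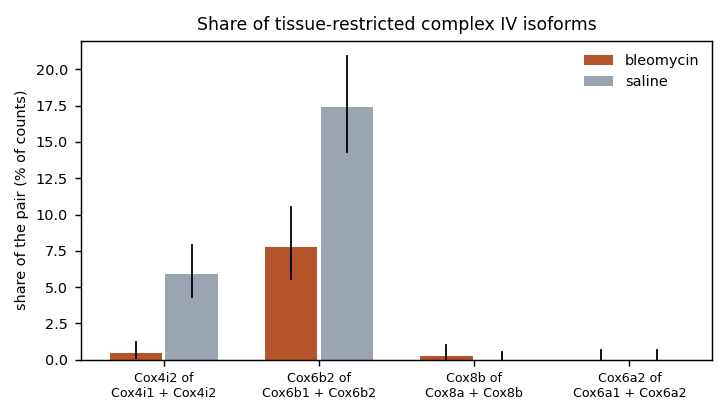
Share of the tissue-restricted isoform in the counts of each complex IV isoform pair, as bars for the bleomycin and saline libraries with exact 95% intervals as lines. Cox4i2 (0.477% against 5.92%) and Cox6b2 (7.79% against 17.4%) take a smaller share in the bleomycin library, and the muscle isoforms Cox8b and Cox6a2 are near 0 in both. The Cox8b site lies 13 bases from the annotated end, which limits how far its counts can be assigned.

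Cox4i2 and Ndufa4l2 are also known from pericytes, the mural cells of small vessels. The 7 other pericyte markers found summed to 146 counts in the bleomycin and 220 in the saline library. Of 6 tested, Higd1b (6 and 44 counts) and Lamc3 (4 and 29) were lower (33.3%, against 14.1% over all genes tested). Cspg4 (49 and 31), Pdgfrb (27 and 30), Kcnj8 (50 and 69) and Notch3 (8 and 15) did not pass, and Rgs5 had 2 counts in each library. The part of pericytes in the lower counts of Cox4i2 and Ndufa4l2 was not tested. Heart and muscle markers, whose tissues use several of the restricted isoforms, summed to 38 and 159 counts, of which Actc1 gave 25 and 154, with Myh7 and Actn2 at 0 in both.

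Besides Cox4i1, the widely expressed complex IV subunits that were higher were Cox5a and Cox5b, both nuclear-encoded structural subunits. Cox5a had 137 counts in the bleomycin and 75 in the saline library and was 1.85-fold higher (1.38 to 2.48), and Cox5b, whose tag is shared with Gm11273, had 239 and 171 counts and was 1.41-fold higher (1.16 to 1.73). Cox6c (775 and 726 counts), Cox8a (722 and 655), Cox6a1 (538 and 553), Cox7c (521 and 465) and Cox6b1 had ratios from 0.984 to 1.13 and did not pass. Cox7b had 6 and 9 counts. The interval of Cox6c, the deepest of these, ran from 0.974 to 1.2 and does not hold the ratio of Cox5a. Cox7a2l, a factor that joins complexes III and IV into supercomplexes, had 137 and 164 counts, with a ratio of 0.845 (0.668 to 1.07). Cox4nb is taken by the rule for its symbol, which stands for a neighbour of Cox4i1, and encodes a subunit of an endoplasmic reticulum complex; it had 50 and 72 counts and did not pass.

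In complex I, 9 of 37 genes were higher and 2 lower (24.3% and 5.41%), and 26 did not pass. The shares were 13.8% and 14.1% over all genes tested, and 19.4% and 20.8% among genes with at least 50 counts. The median count of complex I genes was 240 over both libraries. Ndufa11, an accessory subunit of the membrane arm, had 142 counts in the bleomycin and 43 in the saline library and was 3.34-fold higher (2.36 to 4.81). It had the largest ratio of the tested subunits. Ndufs1, the largest subunit and a carrier of iron-sulphur clusters, had 20 and 7 counts and was 2.89-fold higher (1.17 to 8.09), adjusted p = 0.0447 by the exact binomial test; the call was lost with library sizes scaled by total counts or by DESeq2 size factors, and its site lies 13 bases from the annotated end. Among other accessory subunits the largest ratios past the test were those of Ndufa10, with 150 and 90 counts, 1.69-fold higher (1.29 to 2.21), and of Ndufa13, with 246 and 157 counts, 1.58-fold higher (1.29 to 1.95). Ndufc2 (95 and 61 counts), Ndufa12 (178 and 124) and Ndufa3 (272 and 217) were 1.57-fold, 1.45-fold and 1.27-fold higher.

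Catalytic core subunits of complex I hold the flavin and the iron-sulphur clusters. Ndufv2, an iron-sulphur subunit of the NADH-oxidising end, had 127 counts in the bleomycin and 80 in the saline library and was 1.6-fold higher (1.2 to 2.15). Ndufs3 (138 and 137 counts), Ndufs7 (89 and 78) and Ndufs8 (112 and 112) had ratios of 1.02, 1.15 and 1.01 and did not pass, and Ndufv1, which binds NADH, had 13 and 15 counts. The 29 accessory genes by prefix, with Ndufa4l2 left out and Ndufa4 kept, summed to 4885 and 4492 counts, a ratio of 1.1 (1.06 to 1.15). Of these, 6 were higher and 1 lower (20.7% and 3.45%, against 13.8% and 14.1% over all genes tested).

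The lower genes of complex I were Ndufb11 and Ndufa4l2. Ndufb11, a membrane arm subunit encoded on the X chromosome, had 307 counts in the bleomycin and 382 in the saline library and was 1.23-fold lower (1.06 to 1.44). Ndufa4l2, a protein that low oxygen induces and that lowers complex I activity, had 21 and 55 counts and stood 2.59-fold lower (1.54 to 4.51). Its relative Ndufa4, now counted as a complex IV subunit despite its name, had 18 and 31 counts, with a ratio of 0.587 (0.309 to 1.08). The accessory subunits with the highest counts had ratios from 0.923 to 1.11: Ndufb9 had 344 and 377 counts, Ndufa2 363 and 331, and Ndufa1 356 and 351, a ratio of 1.03 (0.883 to 1.19).

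Complex II was the complex whose summed counts and median ratio were lower in the bleomycin library, with 1 of 4 genes past the test, upward. Sdha, the flavoprotein that oxidises succinate, had 95 counts in the bleomycin and 124 in the saline library, a ratio of 0.775 (0.587 to 1.02). Sdhb, the iron-sulphur subunit, had 143 and 150 counts, with a ratio of 0.964 (0.761 to 1.22), and Sdhc, a membrane anchor, had 139 and 161 with 0.873 (0.691 to 1.1). Sdhd, the other anchor, was 1.72-fold higher (1.16 to 2.56), with 73 and 43 counts and an adjusted p of 0.0221 (exact binomial test). The intervals of Sdhd and Sdhc do not overlap, although the proteins anchor the same complex.

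**Figure D4:**
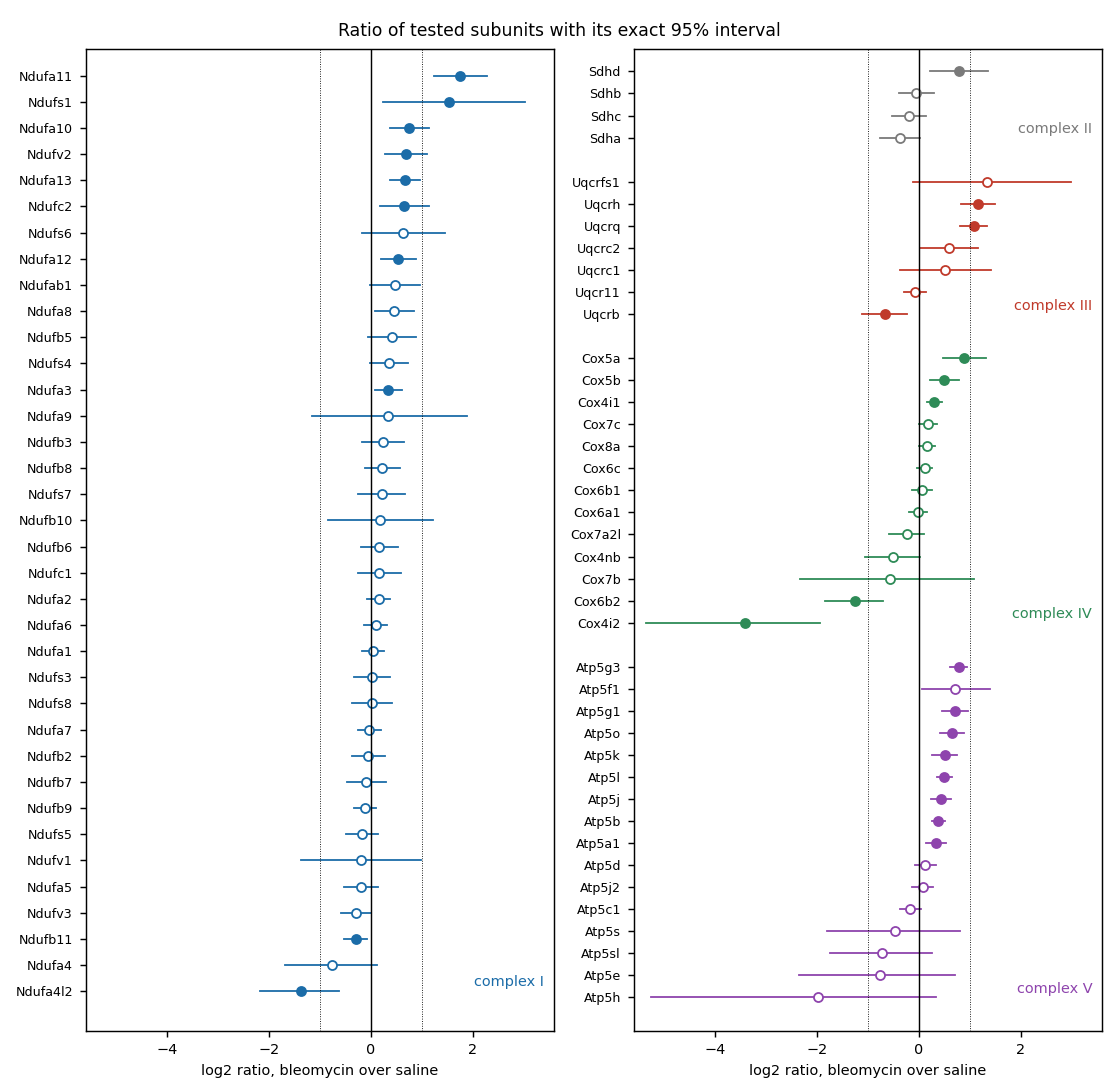
Log2 ratio of bleomycin over saline for tested subunits, by complex, with exact 95% intervals as lines. Filled circles passed the exact binomial test at an adjusted p under 0.05 and open circles did not, and dotted lines mark 2-fold; filled circles lie mostly right of 0, with Cox4i2, Cox6b2, Ndufa4l2, Uqcrb and Ndufb11 on the left.

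Genes of the chain that the symbol rule leaves out were higher in all 5 cases found in the table. Over all genes tested 13.8% were higher. The 5 genes had a median of 584 counts over both libraries, against 52 for all genes tested. Besides Cyc1, Cycs, cytochrome c itself, had 237 counts in the bleomycin and 176 in the saline library and was 1.36-fold higher (1.12 to 1.67). Atpif1, the inhibitor of ATP hydrolysis by complex V, had 368 and 216 counts and was 1.72-fold higher (1.45 to 2.05). Usmg5 and 2010107E04Rik, named Atp5md and Atp5mpl in RefSeq and known as small proteins of the ATP synthase, were 1.64-fold (1.43 to 1.89) and 1.73-fold higher (1.49 to 2.01), with 545 and 485 counts in the bleomycin and 336 and 284 in the saline library. Genes encoded in mitochondrial DNA were not analysed here.

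Assembly factors, which build the complexes but are not part of them, had 2 of 22 tested genes higher and 2 lower (9.09% each, against 13.8% higher and 14.1% lower over all genes tested), with a median log2 ratio of 0.40. Ndufaf4, a complex I factor, had 28 counts in the bleomycin and 7 in the saline library and was 4.04-fold higher (1.73 to 11), and Ttc19, a complex III factor, had 18 and 5 and was 3.64-fold higher (1.3 to 12.5). Cox19, a complex IV factor, had 20 and 43 counts and stood 2.13-fold lower (1.22 to 3.82). Among carriers and porins, 3 of 9 were higher (33.3%, against the same 13.8%) and 0 lower. Slc25a5, an exchanger of ADP and ATP across the inner membrane, had 571 and 222 counts and was 2.6-fold higher (2.22 to 3.05). Slc25a3, the phosphate carrier with the highest count of the list, had 715 and 806 counts, with a ratio of 0.897 (0.81 to 0.993).

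Pathways that feed the chain had shares of higher genes near that over all genes. Of 14 citric acid cycle and pyruvate dehydrogenase genes tested, 2 were higher and 1 lower (14.3% and 7.14%, against 13.8% and 14.1% over all genes tested), with a median log2 ratio of −0.07. Cs, citrate synthase, had 216 counts in the bleomycin and 127 in the saline library and was 1.72-fold higher (1.37 to 2.16), and Ogdh, of the oxoglutarate dehydrogenase complex, had 30 and 55 and was 1.81-fold lower (1.14 to 2.93). Pdha1, a pyruvate dehydrogenase subunit, had 220 counts in the bleomycin and 229 in the saline library. Of 18 genes of mitochondrial fatty acid oxidation, 2 were higher and 3 lower (11.1% and 16.7%), with a median of −0.28. Etfa, which passes electrons from fatty acid oxidation towards ubiquinone, had 13 and 44 counts and stood 3.35-fold lower (1.77 to 6.77), and Acadm, a dehydrogenase for medium-length fatty acids, had 26 and 70 counts and stood 2.66-fold lower (1.68 to 4.35). Slc25a20, the carnitine carrier, had 35 and 13 counts and was 2.72-fold higher (1.41 to 5.61). Of 62 mitochondrial ribosomal protein genes tested, 9 were higher (14.5%, near the 13.8% over all genes tested) and 0 lower, with a median of 0.30. Of 63 cytosolic ribosomal protein genes, 29 were higher and 12 lower, with a median of 0.12. Their shares were 46.0% and 19.0%, against 13.8% and 14.1% over all genes tested. More counts make the test easier to pass. The median count over both libraries was 3224 for cytosolic and 48.5 for mitochondrial ribosomal protein genes, and 52 for all genes tested. No difference between these lists and the subunits was tested.

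**Figure D5:**
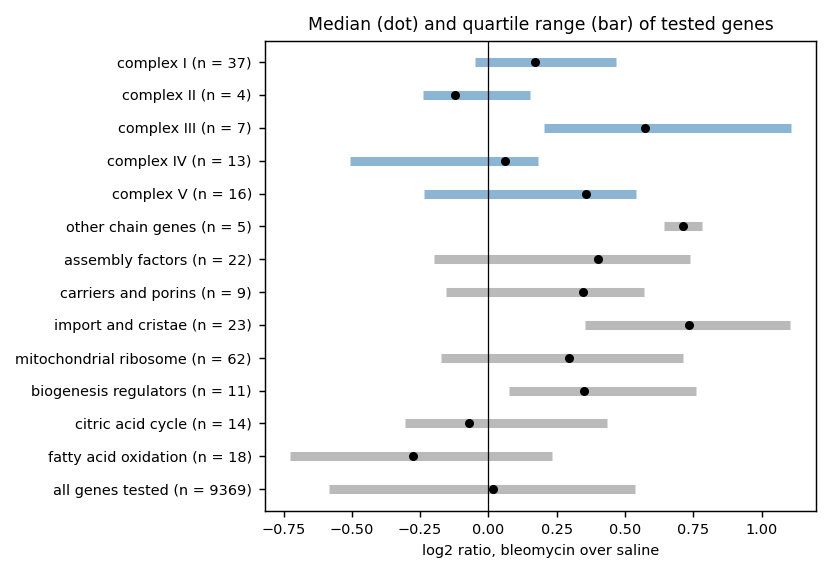
Median (dots) and quartile range (bars) of the log2 ratio of bleomycin over saline for the tested genes of each complex, of other mitochondrial gene lists and of all genes tested, with the number of genes. Complexes III and V lie right of the median of all genes (0.02), while the medians of complex II, the citric acid cycle and fatty acid oxidation lie left of 0.

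Promoters of the subunits were examined for motifs of factors known to control respiratory genes. RefSeq promoters of 300 bases, 250 before the start and 50 after it (GRCm38.p6), were matched for 66 of the 81 genes. The motifs were GCGC and TGCGC with any base between them for NRF1, CCGGAAG for ETS factors such as GABP, AANATGGCG for YY1, TNAAGGTCA for oestrogen-related receptors and CACGTG, the E-box, on both strands; NRF1 matches on opposite strands can overlap. An NRF1 match was in 21.2% of subunit promoters and 4.78% of all 27025 promoters, an ETS match in 22.7% and 9.12%, and a YY1 match in 13.6% and 2.51%. At least 1 of these 3 motifs was in 33 of 66 subunit promoters and in 14.7% of all promoters. The receptor motif was in 3.03% and 1.26%, and the E-box in 10.6% and 7.24%. Subunit promoters had a median GC content of 57.3%, against 52.7% for all promoters.

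Shares by test outcome differed from motif to motif and were not tested. Of 18 matched genes higher by the test, 8 held an NRF1, ETS or YY1 match (44.4%), and of 43 that did not pass, 24 did (55.8%). An NRF1 match alone was in 27.8% of the genes that were higher and 20.9% of those that did not pass, an ETS match in 22.2% and 25.6%, a YY1 match in 5.56% and 16.3%, an E-box in 16.7% and 9.3%, and the receptor motif in 2 and 0 genes. The promoters of 3 genes that were higher are shown, with matches in capitals: Ndufa11, which has the largest ratio, at chr17:56717512-56717811 (plus strand) with an NRF1 match; Sdhd, the only complex II subunit that passed, at chr9:50603800-50604099 (minus strand) with NRF1, ETS and receptor matches in that order; and Atp5g3, with the smallest p of all subunits, at chr2:73911277-73911576 (minus strand) with an E-box, a receptor match and an NRF1 match. A match is a run of letters and not evidence of binding.
Ndufa11: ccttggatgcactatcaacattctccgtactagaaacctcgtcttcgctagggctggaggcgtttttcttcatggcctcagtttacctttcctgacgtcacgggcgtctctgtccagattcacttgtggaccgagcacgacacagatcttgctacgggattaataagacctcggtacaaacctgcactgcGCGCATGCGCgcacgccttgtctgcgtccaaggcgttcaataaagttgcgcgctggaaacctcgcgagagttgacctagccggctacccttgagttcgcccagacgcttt
Sdhd: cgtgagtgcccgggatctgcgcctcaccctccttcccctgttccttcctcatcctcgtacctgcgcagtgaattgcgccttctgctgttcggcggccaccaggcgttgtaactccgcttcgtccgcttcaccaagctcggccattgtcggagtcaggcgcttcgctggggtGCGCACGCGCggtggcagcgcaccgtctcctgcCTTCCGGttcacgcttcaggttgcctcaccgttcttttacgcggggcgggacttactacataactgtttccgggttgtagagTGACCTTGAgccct
Atp5g3: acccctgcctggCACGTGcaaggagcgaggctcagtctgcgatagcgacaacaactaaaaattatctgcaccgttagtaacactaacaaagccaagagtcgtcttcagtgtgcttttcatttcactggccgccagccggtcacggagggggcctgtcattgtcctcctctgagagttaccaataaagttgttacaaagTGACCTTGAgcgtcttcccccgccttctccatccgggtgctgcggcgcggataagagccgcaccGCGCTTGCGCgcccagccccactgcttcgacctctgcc

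Genes for the factors themselves had few counts. Nrf1 had 10 counts in the bleomycin and 22 in the saline library, a ratio of 0.46 (0.194 to 1.01), and Gabpa, the DNA-binding subunit of GABP, had 29 and 17 counts, a ratio of 1.72 (0.917 to 3.35); neither passed. Yy1 had 50 and 46 counts. Esrra, the oestrogen-related receptor alpha, had 41 and 17 counts and was 2.44-fold higher (1.36 to 4.58). It was the 1 of 11 tested regulators that passed (9.09%, against 13.8% higher over all genes tested). Ppargc1a, the coactivator PGC-1 alpha, had 1 count in the bleomycin and 0 in the saline library. Tfam, which binds mitochondrial DNA and aids its transcription, had 27 and 29 counts with a ratio of 0.942 (0.536 to 1.65).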

How the data were processed

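The deposited table holds whole-number tag counts for each gene, 1 column per SOLiD SAGE library. Per the submitters' processing notes, BWA 0.6.2 and build mm9 were used, with no role given. How tags were assigned to transcripts, whether strand was used and whether counts were scaled are not given in the sources used here. Tests take the deposited counts as unscaled. Molecular identifiers are not mentioned, so intervals and limits cover counting error only. On the CPM scale, computed from the deposited counts, 1 count equals 0.922 in the bleomycin and 0.912 in the saline library.

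Library sizes were scaled by TMM (edgeR 4.0.16, R 4.3.3), the factors being 0.986 for bleomycin and 1.01 for saline. With 1 library per group edgeR could fit no quasi-likelihood test. Genes with at least 10 counts over both libraries were compared by an exact binomial test, two-sided, with Benjamini-Hochberg adjustment over all genes tested. Fitted log2 ratios have 0.5 added to each count. Ratios have exact Clopper-Pearson 95% intervals. Intervals and tests came from scipy 1.17.1 under Python 3.11.15 and figures from matplotlib 3.10.9, with tables handled in pandas 2.3.3. The test was tested on simulated data. Named members were those past the 2-fold call, the 3 largest and 3 smallest ratios and the 2 highest counts of each complex, core and stalk genes and isoform pairs. Further members are named to account for each complex and were chosen after their values were seen. Members and lists were chosen with earlier results of these data known. GENCODE M21 and RefSeq sequences are of GRCm38, not mm9. Some genes counted in the totals are not reported here by name.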

Additional observations from a re-analysis of the deposited data

How the results depend on the processing

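Bonferroni adjustment left 8 subunits higher and 2 lower, and a ratio of at least 1.5 in place of 2 gave 13 called higher. A minimum of 50 counts moved the median log2 ratio of complex V to 0.46. Scaling by total counts moved the ratio of all summed subunits to 1.14. Leaving out Uqcr11, the complex III gene with the most counts over both libraries and a ratio of 0.942, moved that of complex III to 1.69. These shifts follow from what each alternative takes out or rescales. The other alternatives (DESeq2 1.42.0 size factors, no minimum count, structural subunits only and 5 added to each count) kept these counts within 1.5 times, medians within 0.1 and summed ratios within their intervals. Of 47 named subunits tested, 43 kept direction and side of the threshold under total counts and 45 under DESeq2 size factors. The call of Ndufs1 was lost under both. None of the others that moved had passed the test: log2 ratios near 0 changed sign under total counts, to −0.0048 for Ndufa1, −0.015 for Ndufs3 and −0.025 for Ndufs8, and Ndufs8 was at 0 with DESeq2 size factors. With 1 library per group no library could be left out and no paired analysis was possible because each group has a single library. Depth limits subunits with few counts, such as Atp5h and Uqcrfs1.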

Other observations

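Genes that import and shape mitochondrial proteins and membranes were higher wherever they passed the test. Of 23 import and cristae genes tested, 10 were higher and 0 lower in the bleomycin library, where 13.8% of all genes tested were higher, and their median log2 ratio was 0.73. Tomm40, the channel of the outer membrane translocase, had 100 counts in the bleomycin and 37 in the saline library and was 2.73-fold higher (1.86 to 4.1). Timm8a1, a small chaperone of the space between the membranes, had 57 and 18 counts and was 3.2-fold higher (1.86 to 5.78). Tomm7, the member with the largest sum of counts over both libraries, had 225 and 258 counts, with a ratio of 0.882 (0.734 to 1.06). The difference from the subunits was not tested.

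Genes that remove superoxide and peroxide had 1 of 9 members higher and 3 lower (11.1% and 33.3%, against 13.8% and 14.1% over all genes tested). Prdx5, a peroxiredoxin found in mitochondria and peroxisomes, had 348 counts in the bleomycin and 130 in the saline library and was 2.71-fold higher (2.21 to 3.34). Cat, the peroxisomal catalase, had 6 and 29 counts and stood 4.78-fold lower (1.95 to 14.1), and Gpx4, which reduces lipid peroxides, had 772 and 1229 counts, with a ratio of 0.635 (0.58 to 0.696).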
